A study of Homo sapiens with 9 samples.

Results

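The proteins of the cytosolic ribosome are encoded by genes named RPS for the small subunit and RPL for the large subunit. The family was taken as the protein-coding genes whose symbol is RPSA, or RPL or RPS followed by a number (with an optional A, X or L) or, for the stalk proteins, by P0, P1 or P2. This rule uses names and no measured value, and it gave 83 members among the 54562 Ensembl genes of the expression table. Of the members, 31 encode proteins of the small subunit, 45 encode proteins of the large subunit and 7 are paralogs (RPL3L, RPL7L1, RPL10L, RPL22L1, RPL26L1, RPL39L and RPS27L) that resemble another member. RPL17 was not analysed here, and genes that encode ribosomal or ribosome-bound proteins under names outside the rule, such as FAU and RACK1, were kept as a list of their own.

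Ribosomes are built in the nucleolus from ribosomal RNA and ribosomal proteins, and most of these proteins are needed in equal numbers for every ribosome. Their mRNAs are among the most abundant of growing cells and typically begin with a terminal oligopyrimidine (TOP) tract, a C followed by further C or T, through which growth signals acting on mTORC1 and LARP1 control their translation and stability. Many of these genes carry small nucleolar RNAs (snoRNAs) in their introns, and their spliced mRNAs have left many processed pseudogenes in the genome.

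RNA-seq was performed on HEK293, a human embryonic kidney cell line, after transient transfection with a lipid reagent. The groups received the empty vector (EV), the plasmid for the ADARB1 isoform that skips an *Alu* exon (Short) or the plasmid for the isoform that includes it (Long). ADARB1, also called ADAR2, is an adenosine-to-inosine RNA editing enzyme that HEK293 cells express at a low level. Each group had 3 libraries, made in as many passages of the cells, from RNA taken 48 hours after the transfection. The 3 groups share the cell line, the transfection reagent and the time, so that Short and Long differ from EV by a plasmid-driven ADARB1 and from each other by the *Alu* exon. All values are FPKM, the fragments assigned to a gene per kilobase of its length, relative to all fragments mapped in that library, and where 3 values of a group are given they are replicates 1, 2 and 3.

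ADARB1 was between 7.66 and 8.61 FPKM in EV and between 1695 and 4145 FPKM in Short and Long, as labelled. Of the genes that mark the line, KRT8 was at 163 to 216 FPKM, VIM at 132 to 164 FPKM and NEFM at 48.6 to 75.5 FPKM, while the blood marker PTPRC was at most 0.131 FPKM and the liver marker ALB at most 0.326 FPKM. KRT18 was at 76.3 to 99.6 FPKM, but PAX2, also taken as a mark of the line, only at 1.73 to 2.87 FPKM. The fibroblast markers COL1A1 and COL3A1 were at 9.10 to 12.9 and 0.441 to 1.01 FPKM. The smooth muscle marker ACTA2 was at 9.42 to 19.8 FPKM. Fragment counts are not given. From the steps of the lowest values, the depth relative to EV replicate 1 was 0.993 to 1.07 in the other libraries of replicates 1 and 2, and 1.11 to 1.21 in the replicate 3 libraries, which stand apart from the rest in the members' values as well. The sum of FPKM over all genes was 517170 to 541348 in EV, 533531 to 589536 in Short and 544461 to 567585 in Long, so that within each passage the sum was higher in both ADARB1 groups than in EV, with a mean log2 ratio of 0.0846 for Short and 0.0757 for Long.

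The starts of several members are printed first because the TOP tract is what most of the family shares beyond its names. Sequences are from RefSeq on GRCh38.p14, a build other than the hg19 of the expression values, with 10 bases before the annotated first base of the transcript and 15 bases from it on. They are written 5′ to 3′ on the strand of the gene, and capitals mark a run of C and T that begins with C at the annotated first base. RPLP1, RPL28, RPS3, RPL38, RPL37A, RPS21 and RPL7A are 7 of the 10 members that passed the test of Long against EV, and RPS14 and RPL39 had 2 of the 3 smallest p-values between passages. The members of this first block were picked among those with such a run. RPL19, which also passed, and RPL3, with the smallest p between passages, have no run beginning exactly at an annotated first base and are not printed. RPL37, which passed as well, had no window.
RPLP1, chr15:69452808-69452832, plus strand: ggcgcgagagCCCCTTTCCTCagct
RPL28, chr19:55385922-55385946, plus strand: cctcgccttcCTCTTTCCgtctcag
RPS3, chr11:75399508-75399532, plus strand: cgagccacttCCTTTCCTTTCagcg
RPL38, chr17:74203668-74203692, plus strand: aagtctcgttCTTTTTCgtcctttt
RPL37A, chr2:216498834-216498858, plus strand: gcgtctcttcCTTTCTgggctcgga
RPS21, chr20:62387093-62387117, plus strand: ctagctgcttCCTTTCTCTCTCgcg
RPL7A, chr9:133348208-133348232, plus strand: attccctttcCTTTCTCTCTCCTCC
RPS14, chr5:150449725-150449749, minus strand: ccctcccactCTCTCTTTCCggtgt
RPL39, chrX:119791616-119791640, minus strand: ccgccagcttCCCTCCTCTTCCTTT

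The next sequences set RPS27 and RPL26 against their paralogs RPS27L and RPL26L1, and add RPL27, another member that passed in Long against EV. The members RPL26L1, RPS27L and RPL27 have no such run of at least 5 bases that begins within 10 bases of an annotated start.
RPS27, chr1:153990752-153990776, plus strand: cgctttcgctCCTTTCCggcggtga
RPS27L, chr15:63157463-63157487, minus strand: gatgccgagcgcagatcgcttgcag
RPL26, chr17:8383179-8383203, minus strand: gcgtgtagttCTCTTCCCTTTTgcg
RPL26L1, chr5:172958719-172958743, plus strand: tccaggggtcggcgaacgaaacgcg
RPL27, chr17:42998409-42998433, plus strand: gtgaaaggttagcggaagtgtcctt

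A window around an annotated start was found for 66 of the 83 members. The run searched for was a C followed by C or T, of at least 5 bases in all, read on the strand of the gene only. It began within 10 bases of a start in 58 of the 66 members (87.9%), against 38.4% of all 27305 symbols with a window. Beginning exactly at an annotated first base, it was found in 47 members (71.2%), against 5.14% of all symbols. RPL10L, RPL26L1, RPL27, RPL6, RPL7L1, RPS27L, RPS29 and RPS4X had a window and no run beginning within 10 bases of a start, so that 4 of these 8 are paralogs. Runs that begin further away were not searched for. A run of these letters is a description of the annotated start and not a measured TOP mRNA.

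A part of the family also hosts snoRNAs, while 55 of the 83 members held none. The share of all genes that hold a snoRNA was not computed. On the GRCh37 annotation, 28 members held 57 of the 1458 annotated snoRNAs inside their boundaries on the same strand, among them RPL7A with SNORD24, SNORD36A, SNORD36B and SNORD36C and RPS3 with SNORD15A and SNORD15B. The members lay on 20 chromosomes, with 12 on chromosome 19, 9 on chromosome 3 and 4 on chromosome X. The median length of the longest annotated transcript was 1962 nt, against 3729.5 nt over all tested genes, and the median GC content was 47.8% in both.

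In EV, 79 of the 83 members had a level that could be tested (a mean of at least 1 FPKM over the 9 libraries), and these spanned 10.5 to 2185 FPKM with a median of 938.6 FPKM. The median of all 13801 tested genes was 11.6 FPKM. The EV mean was at least 1000 FPKM for 39 members and at least 500 FPKM for 64, and 48 of the 100 and 68 of the 200 most abundant genes in EV were members. The spread between the 3 EV libraries was small, with a median coefficient of variation of 7.14% over the members and 10.2% over all tested genes.

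The highest members in EV were RPS3, at 2185 ± 184 FPKM (SD, n = 3), which lies at the mRNA entry of the small subunit; RPS24, at 2146 ± 128 FPKM; RPS2, at 2104 ± 218 FPKM; RPL19, at 2017 ± 137 FPKM; and RPL37A, at 1977 ± 165 FPKM. These neighbours in the order do not differ beyond their spread. The lowest tested members were RPS26 at 10.5 ± 0.805 FPKM, RPL21 at 23.4 ± 0.377 FPKM, RPL39L at 24.9 ± 4.62 FPKM, RPL22L1 at 52.5 ± 2.95 FPKM and RPL26L1 at 68.1 ± 4.44 FPKM, of which 3 are paralogs. RPS26 and RPL21 are not paralogs, and their pseudogenes, given further on, were listed above them.

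The members that were not tested were under 1 FPKM. RPL3L, a paralog of RPL3 known from striated muscle, ranged from 0.0198 to 0.144 FPKM, and RPL10L, a paralog of RPL10 known from the testis, was listed at 0 in all libraries except Short replicate 2 (0.111 FPKM). RPS18 was listed at 0 in all 9 libraries. It encodes a protein that every small subunit contains, so this value is not read as absence of the mRNA.

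**Figure D1:**
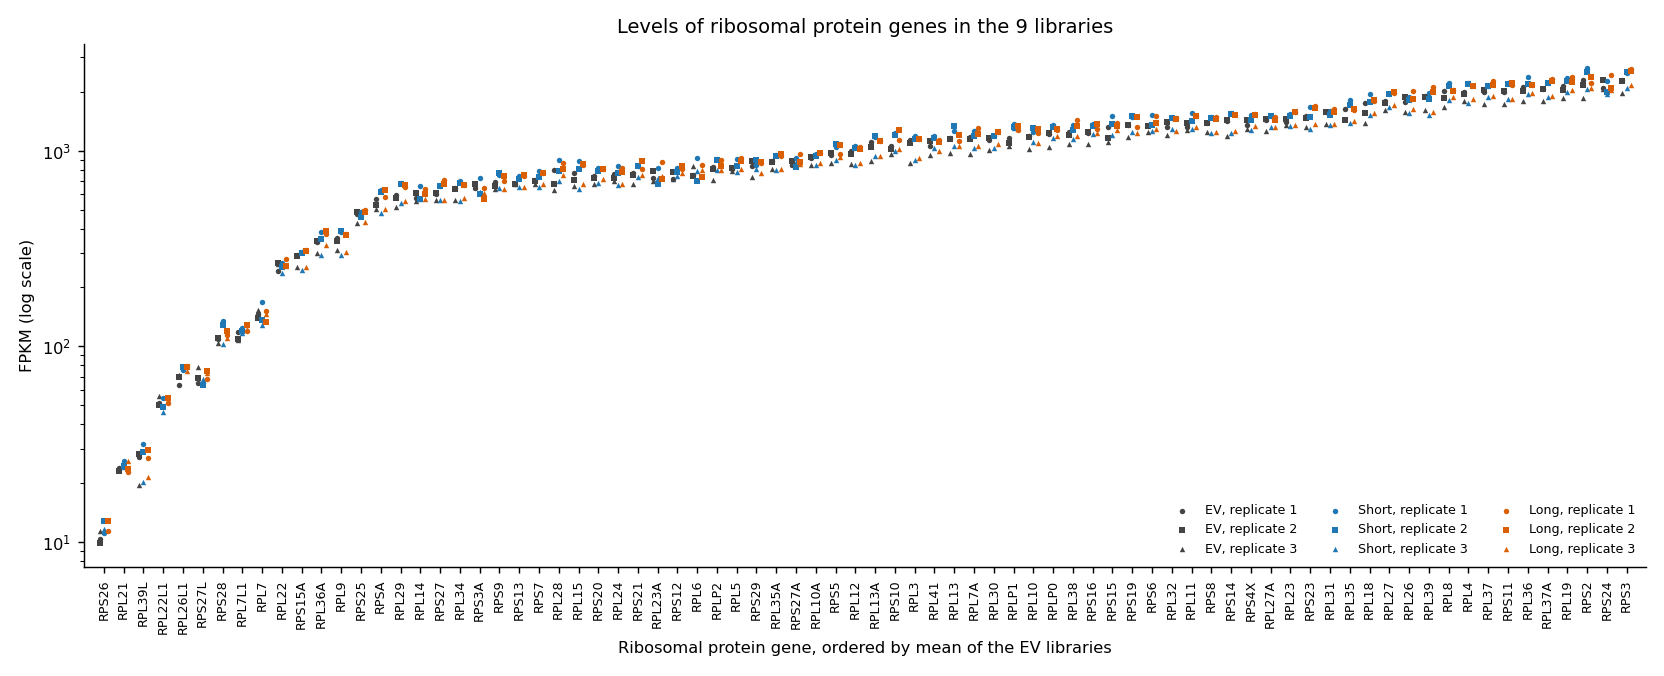
FPKM of tested members in the 9 libraries, on a log axis, ordered by EV mean, with 1 point per library (color for the group, shape for the replicate). An EV mean of at least 500 FPKM is reached by 64 members, while RPS26 and RPL21 lie at the left end with the paralogs RPL39L, RPL22L1 and RPL26L1.

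Together the 83 members took 15.2%, 15.5% and 14.1% of the summed FPKM in EV, 15.3%, 15.5% and 14.1% in Short and 15.6%, 15.7% and 14.1% in Long. The share was lowest in replicate 3 of every group, and the groups overlap. Within passages it was 0.0674 percentage points higher in Short than in EV (SD 0.0541, n = 3), 0.218 higher in Long than in EV (SD 0.189) and 0.151 higher in Long than in Short (SD 0.137). Between passages it ranged over more than a percentage point, from a mean of 14.1% in replicate 3 to 15.6% in replicate 2. The ratio of the small to the large subunit sum was between 0.585 and 0.603 in all libraries. In bulk RNA of a transfected culture, a change of the level per cell and a change in the mix of cells cannot be told apart.

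Summed without dividing by all genes, the members were at 82028, 81267 and 72779 FPKM in EV, 90086, 86521 and 75213 FPKM in Short and 88348, 87320 and 76812 FPKM in Long. Each Short and Long library was above the EV library of its own passage. The mean log2 ratio of these sums was 0.0910 for Short (SD 0.0439, n = 3) and 0.0962 for Long (SD 0.0160), beside the 0.0846 and 0.0757 of the sum of all genes. The sum over the members was thus higher by about as much as the sum over all genes, and this common part stands in all the fold changes given below.

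**Figure D2:**
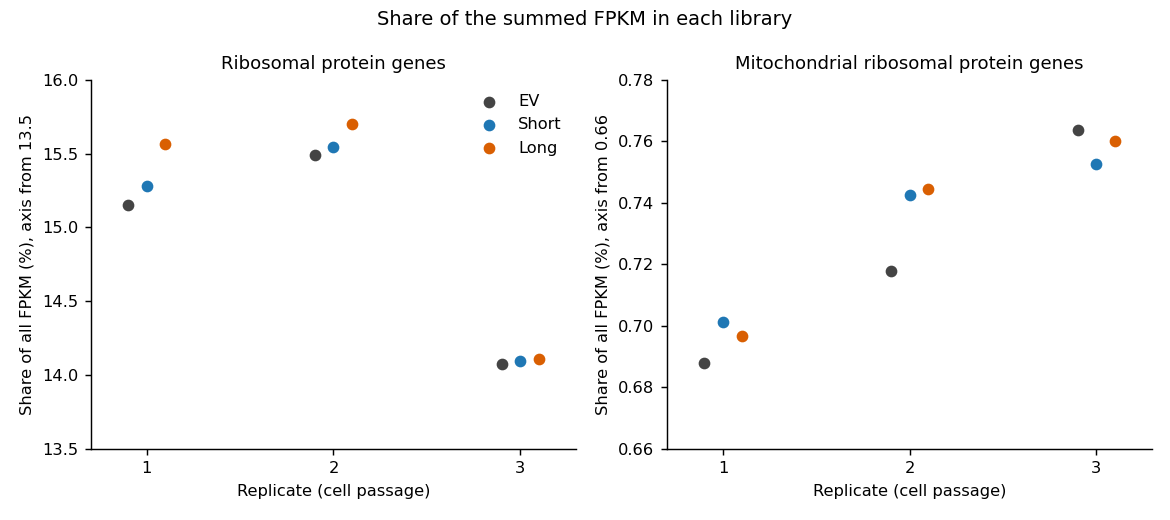
Share of the summed FPKM of each library taken by the cytosolic ribosomal protein genes (left) and by the mitochondrial ribosomal protein genes (right), by replicate, with 1 point per library; neither axis starts at 0. The cytosolic share is near 14.1% in the 3 libraries of replicate 3 and 15.2% to 15.7% in the other 6, while the mitochondrial share is not lowest there.

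The comparison of Short with EV sets the exon skipping isoform against the vector alone. No member passed the test in either direction. The levels of the members were tested as log2(FPKM + 1) in 1 limma fit over the 13801 tested genes, with the passage as a block. The p-values were corrected over all these genes (Benjamini-Hochberg), and fold changes are on this scale, which understates changes of low genes. At an adjusted p under 0.05, limma called 0 of 79 members higher and 0 lower, against 0.029% and 0.00725% of all tested genes. At an unadjusted p under 0.05, 34 members were on the higher side (15.2% of all genes) and 0 on the lower side (6.88% of all genes). The median log2 difference was 0.09 over the members and 0.04 over all tested genes, and 71 of 79 members and 8415 of all 13801 genes were above 0. With every library rescaled to an equal FPKM sum, these medians were 0.0006 and -0.03. On that scale 10 members had an unadjusted p under 0.05 in either direction.

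By passage, the median log2 ratio of Short to EV over the members was 0.14 in replicate 1, 0.09 in replicate 2 and 0.04 in replicate 3. Of the 79 members, 43 were higher in Short in all 3 pairs (32.0% of all genes were), and in 3 of them, RPL21, RPL26L1 and RPLP1, all 3 Short libraries lay above all 3 EV libraries (10.9% of all genes). The p-values rest on the spread left among all 9 libraries after group and passage were fitted, moderated over all tested genes. With no replicate block, 2 members had an unadjusted p under 0.05 for Short.

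The smallest p-values for Short were those of RPLP1, RPL28 and RPS15, none of which passed. RPLP1, an acidic protein of the stalk that recruits elongation factors, was at 1165, 1098 and 1052 FPKM in EV, 1365, 1326 and 1313 FPKM in Short and 1272, 1341 and 1298 FPKM in Long. Its EV libraries lay below all Short and all Long libraries, and its log2 difference of Short to EV was 0.27 (SE 0.0416, limma, adjusted p = 0.0774). RPL28, a large subunit protein, was at 801, 678 and 632 FPKM in EV, 899, 789 and 702 FPKM in Short and 867, 810.3 and 749.9 FPKM in Long. Short and Long were above EV within each passage, but the groups overlap, since EV replicate 1 was above Short replicates 2 and 3. The log2 difference of Short was 0.18 (limma, adjusted p = 0.110). RPS15, a small subunit protein needed for the nuclear export of its precursor, was at 1316, 1164 and 1105 FPKM in EV, 1502, 1373 and 1199 FPKM in Short and 1385, 1336 and 1272 FPKM in Long. Short and Long were above EV within each passage, with overlap between passages, and the log2 difference of Short was 0.18 (limma, adjusted p = 0.110).

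The comparison of Long with EV does the same for the exon inclusion isoform, and here 10 members rose and none fell. They were RPLP1, RPL28, RPS3, RPL38, RPL19, RPL37A, RPL27, RPL37, RPS21 and RPL7A, with rises of 9.0% to 18.0%. Of these, 8 belong to the large and 2 to the small subunit. Limma called 10 of 79 members higher at an adjusted p under 0.05, against 1.99% of all tested genes, and 0 lower, against 6.33%. At an unadjusted p under 0.05, 38 members were higher (12.4% of all genes) and 0 lower (12.0%). The median log2 difference was 0.09 over the members and 0.04 over all genes, and 77 of 79 members and 8382 of all 13801 genes were above 0.

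By passage the median log2 ratio of Long to EV over the members was 0.11, 0.11 and 0.07, and 48 members were higher in Long in all 3 pairs (27.4% of all genes). In 5 of them, RPL26L1, RPL7L1, RPLP1, RPS26 and RPS28, all 3 Long libraries lay above all 3 EV libraries (10.5% of all genes). Only RPLP1 of these passed the test.

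The calls rest on the scale and on the pairing. With every library rescaled to an equal FPKM sum only RPLP1 passed (limma, adjusted p = 0.0315, with 0.00705 to 0.637 over all alternatives), and the median log2 difference of the members was then 0.01 beside -0.03 over all genes; with median-ratio scaling RPLP1 and RPL28 passed. Over all genes, the main scaling gave 275 calls higher and 873 lower (76.0% lower), rescaling to the same sum 57 and 1222 (95.5% lower) and median-ratio scaling 112 and 1131 (91.0% lower). No member passed without the replicate block, without replicate 1, without replicate 2, without the intensity trend of limma or with no filter on low values, where 4, 31, 11, 12 and 32 members had an unadjusted p under 0.05. After a correction for GC content none of the 10 passed, while RPL5 and RPS20 did.

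Among the called members, RPLP1 had a log2 difference of 0.24 (SE 0.0416, limma, adjusted p = 0.0108) and RPL28 one of 0.21 (SE 0.0416, adjusted p = 0.0163), with the library values given above. RPS3, which also has a role as a DNA repair endonuclease, was at 2298, 2283 and 1973 FPKM in EV, 2499, 2513 and 2095 FPKM in Short and 2615, 2554 and 2157 FPKM in Long. The replicate 3 libraries were the lowest of every group, and Long was the highest of its passage each time; the log2 difference was 0.16 (SE 0.0324, limma, adjusted p = 0.0172). RPL38, a small protein of the large subunit linked to translation of Hox mRNAs, was at 1251, 1208 and 1079.9 FPKM in EV, 1354, 1281 and 1142 FPKM in Short and 1438, 1337 and 1189.7 FPKM in Long. Long was again the highest of each passage, with overlap between groups, and the log2 difference was 0.16 (limma, adjusted p = 0.0188).

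RPL19, at a bridge between the subunits, was at 2133, 2053 and 1865 FPKM in EV, 2361, 2263 and 2001 FPKM in Short and 2374, 2242 and 2045 FPKM in Long, with a log2 difference of 0.14 for Long (limma, adjusted p = 0.0274). RPL37A, a zinc-binding protein of the large subunit, was at 2074, 2069 and 1786 FPKM in EV, 2219.7, 2225 and 1876 FPKM in Short and 2318, 2262 and 1914 FPKM in Long, with a log2 difference of 0.13 (limma, adjusted p = 0.0365). RPL27, which has no TOP-like run beginning within 10 bases of its annotated start, was at 1786, 1761 and 1609.8 FPKM in EV, 1954, 1959 and 1666 FPKM in Short and 1976, 2006 and 1708 FPKM in Long, with a log2 difference of 0.14 (limma, adjusted p = 0.0379). In all 3 genes the EV library was the lowest of each passage, and the replicate 3 libraries were the lowest of each group.

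RPL37, another zinc-binding protein of the large subunit, was at 1988, 2052 and 1725 FPKM in EV, 2145, 2132 and 1878 FPKM in Short and 2282, 2163 and 1903 FPKM in Long, with a log2 difference of 0.14 (limma, adjusted p = 0.0402). RPS21, a small subunit protein, was at 772, 749 and 675 FPKM in EV, 839, 831 and 732 FPKM in Short and 808, 886 and 751 FPKM in Long, with a log2 difference of 0.15 (limma, adjusted p = 0.0498). RPL7A, a large subunit protein, was at 1178, 1143 and 965 FPKM in EV, 1253, 1185 and 1027 FPKM in Short and 1309, 1224 and 1051 FPKM in Long, with a log2 difference of 0.12 (limma, adjusted p = 0.0499). The last 2 are just inside the threshold, and RPS15, at an adjusted p of 0.0514 in limma, is just outside it.

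**Figure D3:**
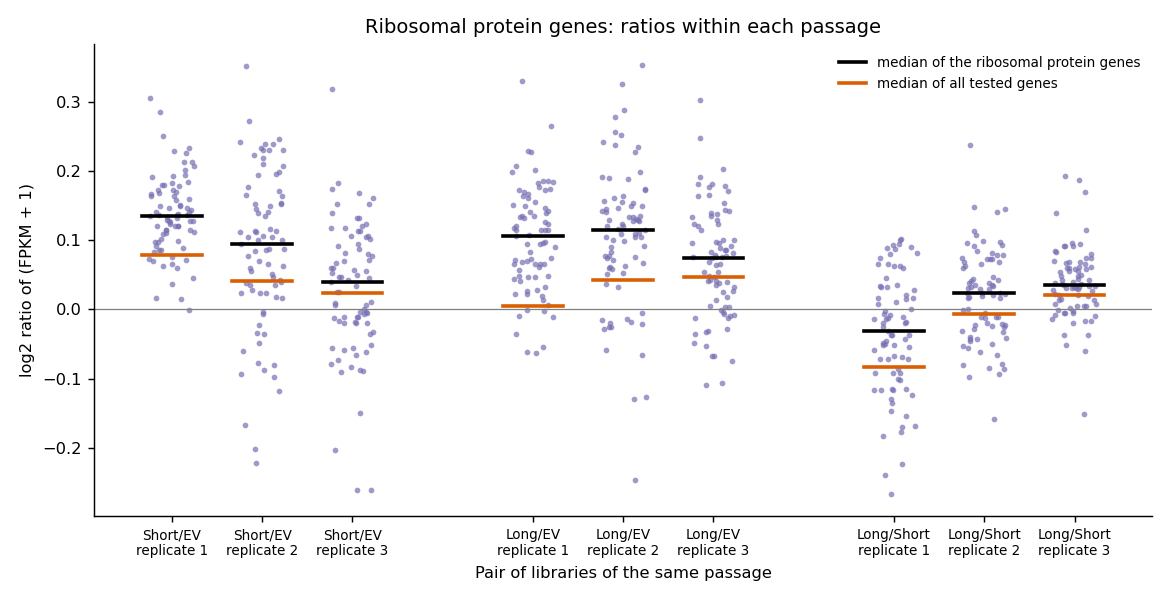
Log2 ratio of (FPKM + 1) between libraries of a passage, for Short to EV, Long to EV and Long to Short, with 1 point per tested member, black bars for the median of the members and orange bars for that of all tested genes. The medians of the members are above 0 in the 6 pairs with EV, lowest in replicate 3 (0.04 in Short and 0.07 in Long), and on both sides of 0 for Long to Short.

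Long and Short differ by the *Alu* exon, and between them no member passed. They also differed in the listed FPKM of ADARB1, at 1889, 4145 and 2735 FPKM in Short and lower in Long in each passage, at 1695, 3449 and 2079.6 FPKM. By qRT-PCR and western blot, the paper reports similar expression of the isoforms. The part of the FPKM difference in the members' values was not tested. Limma called 0 of 79 members higher (0.0% of all tested genes) and 0 lower (0.00725%). At an unadjusted p under 0.05 there was 1 member higher, RPS27L (1.61% of all genes), and 1 lower, RPL13 (5.93%). The median log2 difference was 0.0022 over the members and -0.02 over all genes, and 22 members were higher in Long in all 3 pairs (10.2% of all genes). The members' median ratio of Long to Short turned between passages, from -0.03 in replicate 1 to 0.02 in replicate 2 and 0.04 in replicate 3.

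The 3 smallest p-values were those of RPL13, RPS27L and RPL39. RPL13, a large subunit protein, was at 1166, 1141 and 969 FPKM in EV, 1267, 1338 and 1062 FPKM in Short and 1117, 1199 and 1056 FPKM in Long; its log2 difference of Long to Short was -0.12 (SE 0.0450, limma, adjusted p = 0.605), and the groups overlap. RPS27L, a p53-inducible paralog of RPS27, was at 64.8, 68.7 and 78.4 FPKM in EV, 64.7, 63.3 and 68.0 FPKM in Short and 68.2, 74.8 and 72.7 FPKM in Long. Its Long libraries lay above all Short libraries, if barely for Long replicate 1, but not above all EV libraries, and the log2 difference of Long to Short was 0.14 (limma, adjusted p = 0.657). RPL39, which lines the exit tunnel, was at 1912, 1871 and 1612 FPKM in EV, 1973, 1842 and 1517 FPKM in Short and 2107, 1992 and 1576 FPKM in Long, and its log2 difference was 0.09 (limma, adjusted p = 0.659).

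More members differed between the passages than between the plasmids. In replicate 3, 59 of the members fell relative to replicates 1 and 2. The moderated F test of limma over the 3 passages, with group in the same fit, called 59 of 79 members at an adjusted p under 0.05, against 36.4% of all tested genes. All 59 had their lowest mean in replicate 3, and 0 had their highest mean there. Of all tested genes, 18.6% were called with their lowest mean in replicate 3 and 16.5% with their highest. Of the 20 members that did not pass, 5 had an unadjusted p under 0.05.

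The 3 libraries of replicate 3 lay below all the other 6 in 53 of the 79 members (17.3% of all genes) and above all the other 6 in 0 (13.1%). The median log2 ratio of (FPKM + 1) in replicate 3 to that in replicate 1 was -0.19 over the members (a change of -12.5%) and -0.05 over all genes, while replicate 2 was at -0.02 to replicate 1. Within groups the ratio of replicate 3 to replicate 1 was -0.17 in EV, -0.25 in Short and -0.19 in Long. Of the 10 marker genes followed as a check of the line, VIM (132 to 145 FPKM against 148 to 164 FPKM), ACTA2 (9.42 to 12.5 FPKM against 14.6 to 19.8 FPKM) and COL1A1 (9.10 to 10.4 FPKM against 11.1 to 12.9 FPKM) were also lower in all replicate 3 libraries than in the other 6, and NEFM was higher (70.8 to 75.5 FPKM against 48.6 to 58.1 FPKM). The part of such differences in the members' values was not tested. The passage and whatever was done with it, such as the preparation of its libraries, cannot be told apart.

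RPL3, which lies near the peptidyl transferase centre, had the smallest p (limma, adjusted p = 0.000304) and was at 1139.7, 1096 and 861 FPKM in EV, 1193, 1147 and 895 FPKM in Short and 1144, 1142 and 919.6 FPKM in Long. RPS14, a small subunit protein deleted in the 5q- syndrome, followed (limma, adjusted p = 0.000494), at 1424, 1435 and 1192 FPKM in EV, 1556, 1545 and 1229.6 FPKM in Short and 1516, 1519.6 and 1256 FPKM in Long. RPL39, given above, had an adjusted p of 0.000554 in limma. In all 3 genes every replicate 3 library was below the other 6. The log2 ratio of mean FPKM in replicate 3 to that in replicate 1 was -0.38 for RPL3, -0.29 for RPS14 and -0.35 for RPL39.

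**Figure D4:**
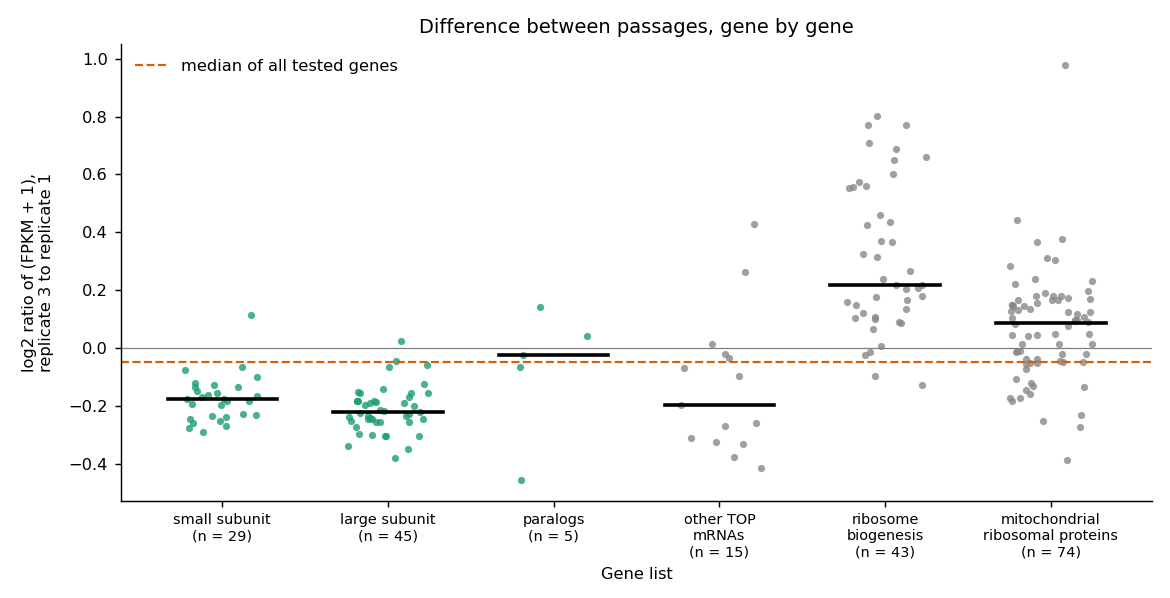
Log2 ratio of (FPKM + 1) in replicate 3 to that in replicate 1, averaged over the groups, with 1 point per tested gene for the members (small subunit, large subunit, paralogs; green) and for the other TOP mRNAs, ribosome biogenesis factors and mitochondrial ribosomal proteins (grey); black bars are list medians and the dashed line is the median of all tested genes. The members of both subunits lie almost all below 0, with medians of -0.18 and -0.22, while the biogenesis factors lie mostly above it, with a median of 0.22.

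By subunit, 21 of 29 small subunit members and 37 of 45 large subunit members passed, with median log2 ratios of replicate 3 to replicate 1 of -0.18 and -0.22. Of the 5 tested paralogs, RPL39L passed, with a log2 ratio of mean FPKM of -0.48, the largest fall of all members. On the same scale RPL15 and RPL9, both of the large subunit, fell by 0.34 and 0.30. RPS27L (0.15), RPS26 (0.13), RPL26L1 (0.04) and RPL21 (0.03) were the members with a ratio above 0, and none of them passed. Of the members with a TOP-like run beginning within 10 bases of a start, 44 of 57 tested passed. With a window and no such run, 3 of 7 passed, and of all tested genes 36.4%. These 7 include the paralogs RPL26L1, RPL7L1 and RPS27L, none of which passed (limma, adjusted p = 0.681, 0.559 and 0.173). Lack of a run and being a paralog therefore cannot be told apart in these counts.

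Without replicate 3 in the fit, limma called 0 members between the other 2 passages, with 6 at an unadjusted p under 0.05, while 56 passed without replicate 1 and 60 without replicate 2. The count was 53 with FPKM rescaled to the same sum, 38 without the intensity trend, 32 after the GC correction and 3 (RPL3, RPL7A and RPS14) with no filter on low values, where all 54562 genes were tested. Across the 79 members the Spearman correlation of the passage ratio with GC content was -0.16, and across all tested genes it was -0.46. Genes of 1 set of libraries are not independent points.

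The stalk is formed by RPLP0, which anchors dimers of RPLP1 and RPLP2. RPLP0 was at 1216, 1233 and 1043 FPKM in EV, 1358, 1327 and 1165 FPKM in Short and 1275, 1288 and 1191 FPKM in Long. RPLP2 was at 824, 805 and 705 FPKM in EV, 905, 894 and 801 FPKM in Short and 897, 838 and 798 FPKM in Long. Both were lowest in replicate 3 of each group and passed between passages (limma, adjusted p = 0.00664 and 0.00774), whereas RPLP1 did not (0.492). For Short the log2 differences of RPLP0 and RPLP2 were 0.14 and 0.16 (limma, adjusted p = 0.110 each), and for Long 0.11 and 0.12 (0.122 and 0.0830).

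Of the members of the small subunit described for their role, RPSA, the laminin receptor homolog at the mRNA exit, was at 565, 528 and 504 FPKM in EV, 633, 616 and 479 FPKM in Short and 581, 629 and 502 FPKM in Long. RPS2, near the mRNA entry, was at 2290.0, 2157 and 1863 FPKM in EV, 2654, 2529.6 and 2071 FPKM in Short and 2205, 2392 and 2089.7 FPKM in Long. RPS6, the target of S6 kinase downstream of mTORC1, was at 1337, 1331 and 1252 FPKM in EV, 1514, 1357 and 1257 FPKM in Short and 1507, 1379 and 1287 FPKM in Long. These 3 passed between passages (limma, adjusted p = 0.0101, 0.00628 and 0.0120) with the replicate 3 library the lowest of each group, and none passed between groups.

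RPS19, the gene most often mutated in Diamond-Blackfan anaemia, was at 1353, 1351 and 1181 FPKM in EV, 1483, 1502 and 1239 FPKM in Short and 1319.5, 1478 and 1235 FPKM in Long, and passed between passages (limma, adjusted p = 0.00373). RPS27A, made as a fusion with ubiquitin, was at 849.6, 887 and 859 FPKM in EV, 919.8, 829 and 874 FPKM in Short and 958, 877 and 852 FPKM in Long, and its passages did not pass (limma, adjusted p = 0.351). Of the 8 tested Diamond-Blackfan genes (RPS7, RPS10, RPS19, RPS24, RPS26, RPL5, RPL11 and RPL35A), limma called 0 for Short and 0 for Long. At an unadjusted p under 0.05, 2 and 4 were higher, against 15.2% and 12.4% of all genes. Between passages 5 were called, all 5 lowest in replicate 3, against 18.6% of all genes and 59 of the 79 members.

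In the large subunit, RPL4, which reaches into the exit tunnel, was at 1989, 1959 and 1786 FPKM in EV, 2207, 2194 and 1761 FPKM in Short and 2142, 2151 and 1838 FPKM in Long. RPL10, which joins late and is needed for the subunits to associate, was at 1184, 1181 and 1025 FPKM in EV, 1248, 1306 and 1103 FPKM in Short and 1231, 1296 and 1092 FPKM in Long. Both passed between passages (limma, adjusted p = 0.00253 and 0.00162), and RPL10 was above EV in both ADARB1 groups in each passage without passing (log2 0.11 for Short and 0.09 for Long, adjusted p = 0.126 and 0.129). RPL41, the shortest of the ribosomal proteins, was at 1052, 1126 and 950.5 FPKM in EV, 1195, 1154 and 1028 FPKM in Short and 1139, 1113 and 1002 FPKM in Long, and passed between passages (limma, adjusted p = 0.00619).

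RPL5, RPL11 and RPL23 can bind MDM2 and thereby stabilise p53. RPL5 was at 806, 814 and 791 FPKM in EV, 908, 835 and 782 FPKM in Short and 915, 882 and 805 FPKM in Long. RPL11 was at 1326, 1393 and 1282 FPKM in EV, 1551, 1415 and 1288 FPKM in Short and 1499, 1508 and 1316 FPKM in Long. RPL23 was at 1397, 1457 and 1346 FPKM in EV, 1537, 1505 and 1339 FPKM in Short and 1574, 1584 and 1359 FPKM in Long. In Long all 3 were above EV in each passage, with log2 differences of 0.10 to 0.11 that did not pass (limma, smallest adjusted p = 0.150), and in Short 1 of the 3 was above EV in each passage. RPL11 and RPL23 passed between passages and RPL5 did not (limma, adjusted p = 0.0274, 0.0131 and 0.0609).

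Each paralog was at a lower level than the gene it resembles, by an extent that ranged widely. In EV, RPL7L1 was at 76.3% of RPL7, RPL22L1 at 20.3% of RPL22, RPS27L at 12% of RPS27, RPL26L1 at 3.89% of RPL26, RPL39L at 1.39% of RPL39 and RPL3L at 0.0061% of RPL3. RPL7 itself was low for a member, at 147, 139.7 and 153 FPKM in EV, 168, 136 and 128 FPKM in Short and 151, 133 and 146 FPKM in Long, and RPL7L1, a protein of ribosome assembly, was at 118, 109 and 108 FPKM in EV, 124, 120.3 and 116 FPKM in Short and 120.0, 129 and 123 FPKM in Long. The 2 genes thus lie close to each other, and the pseudogenes of RPL7 were together listed above it.

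RPL22L1 was at 51.4, 50.2 and 55.8 FPKM in EV, 54.6, 48.9 and 46.4 FPKM in Short and 51.3, 54.2 and 53.0 FPKM in Long. RPL26L1 was at 63.1, 69.4 and 71.7 FPKM in EV, 75.3, 78.5 and 77.2 FPKM in Short and 79.6, 78.4 and 74.5 FPKM in Long. RPL39L was at 27.0, 28.1 and 19.6 FPKM in EV, 31.5, 28.9 and 20.3 FPKM in Short and 26.8, 29.6 and 21.4 FPKM in Long. RPL22L1 overlaps between all groups, RPL26L1 was lowest in the 3 EV libraries (limma, adjusted p = 0.130 for Short and 0.0771 for Long), and RPL39L was lowest in the 3 libraries of replicate 3 (adjusted p between passages 0.00103). As a share of RPS27, RPS27L was 10.8%, 11.3% and 14.0% in EV, 9.77%, 9.59% and 12.2% in Short and 9.67%, 11.0% and 13% in Long, so that it was highest in replicate 3 of each group.

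Near-identical copies limit how exactly a member's level is known. The table lists 1556 ribosomal protein pseudogenes, of which 111 had a mean of at least 1 FPKM and 29 of at least 100 FPKM, and together they took 3.11% to 3.54% of the summed FPKM. In 11 members the summed pseudogenes were listed above the gene. RPS28 was at a mean of 115 FPKM over the 9 libraries and its pseudogenes at 1379 FPKM, RPL36A at 346 and 1278 FPKM, RPL41 at 1084 and 1940 FPKM, and RPL23A at 752 and 1535 FPKM. The same held for RPS27, RPL7, RPL22, RPL21, RPS26 and RPS18 among others, and for RPS18, listed at 0, the pseudogenes summed to 155 FPKM.

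In several members 1 copy made up nearly the whole sum, but in RPS27 the highest copy, RPS27P4, was at 495 of 1108 FPKM and in RPS26 the highest, RPS26P19, at 8.28 of 17.4 FPKM. RPL41P1 (chromosome 20) was at a mean of 1937 FPKM, RPL23AP42 (chromosome 3) at 1499 FPKM, RPL39P3 (chromosome 6) at 1488 FPKM and RPS28P7 (chromosome 11) at 1379 FPKM. How reads that match both a gene and its copies were divided is not given in the sources used here, so the levels of these members and of their copies are uncertain. With each member summed with its pseudogenes, an alternative chosen after the data were seen, limma called 11 members higher for Long and 60 between passages.

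The passage difference of the family was set beside that of the genes most like it. Of all tested genes, 36.4% were called between passages, 16.5% with their highest mean in replicate 3 and 18.6% with their lowest. Of the 43 ribosome biogenesis factors followed, limma called 25 (58.1%), and 24 of these had their highest mean in replicate 3 and 0 their lowest. Their median log2 ratio of replicate 3 to replicate 1 was 0.22, the opposite sign of the members' -0.19. NOP56, a core protein of box C/D snoRNPs, was at 265 to 289.8 FPKM in the 3 libraries of replicate 1 (limma, adjusted p = 0.00120). It was at 301 to 342 FPKM in those of replicate 2 and 338 to 354 FPKM in those of replicate 3, so that replicates 2 and 3 overlap. Of 74 mitochondrial ribosomal proteins, which serve another ribosome, 16 were called (21.6%, below the share of all genes). Of these 16, 11 were highest and 4 lowest in replicate 3, and the median ratio of the list was 0.09.

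Of 15 other mRNAs known to begin with a TOP tract, 11 were called (73.3%, against 36.4% of all genes), 8 lowest and 3 highest in replicate 3. The median ratio of the 15 was -0.20, beside the -0.19 of the members. EEF1A1, the elongation factor that delivers tRNA, was at 2346, 2216 and 1908 FPKM in EV, 2504, 2302 and 1806 FPKM in Short and 2418, 2353 and 1893 FPKM in Long (limma, adjusted p = 0.000476). NPM1, a nucleolar histone chaperone, was highest in replicate 3 of each group (adjusted p = 0.00750). Of the ribosomal or ribosome-bound proteins outside the rule, RACK1 was called, lowest in replicate 3 (limma, adjusted p = 0.00133).

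The same lists were followed between groups, where 1.99% of all tested genes were called higher and 6.33% lower for Long. For Long, 3 of the 43 biogenesis factors rose and 4 fell, with FBL, the rRNA methyltransferase fibrillarin, at 269, 266 and 254 FPKM in EV and 319, 321 and 290.2 FPKM in Long (log2 0.24, limma, adjusted p = 0.0105), and with SDAD1 at 15.6, 15.1 and 22.0 FPKM in EV and 10.4, 10.5 and 17.8 FPKM in Long (log2 -0.44, adjusted p = 0.00953). The other genes called were PES1 and POLR1A, which rose, and NOC3L, NMD3 and RIOK2, which fell. Of the 74 mitochondrial ribosomal proteins MRPS2 and MRPS18A rose and MRPL42 fell, and of the 15 other TOP mRNAs EIF3E and NAP1L1 fell. For Short limma called 0 genes of these lists. There 13 biogenesis factors, 28 mitochondrial ribosomal proteins and 6 other TOP mRNAs were higher at an unadjusted p under 0.05 (15.2% of all genes). On the lower side these counts were 2, 1 and 1 (6.88% of all genes). For Long they were 19, 19 and 6 higher (12.4% of all genes) and 7, 3 and 2 lower (12.0%). The median log2 difference of Long to EV was 0.12 over the biogenesis factors, 0.11 over the mitochondrial ribosomal proteins and 0.07 over the other TOP mRNAs. For Short these medians were 0.09, 0.11 and 0.05. The members were at 0.09 in both comparisons, so a median above that of all genes (0.04) was not particular to them.

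GC content moved with the fold changes between groups. Across the 79 tested members the Spearman correlation of GC content with the log2 difference was 0.57 for Short, 0.22 for Long and -0.46 for Long against Short, and across the 13398 tested genes with a GC value it was 0.62, 0.52 and 0.04. These are descriptions over genes that share the same libraries, and the 2 comparisons with EV also share the EV libraries. With the GC correction the members' median log2 difference was 0.06 for Short and 0.05 for Long, and the part of GC content in the calls beyond this correction was not tested.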

How the data were processed

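PolyA RNA of 9 HEK293 cultures, 3 each of EV, Short and Long, was sequenced from both ends as strand-specific libraries. Alignment used TopHat (version 1.4.1) with Ensembl transcripts and hg19, and the authors deposited 1 FPKM value for each gene and library. Cufflinks is listed in the submitters' processing notes. Its version and role, the Ensembl release and the treatment of reads that match several copies are not given in the sources used here. Because FPKM scales each library to its mapped fragments, abundant transcripts lower the values of other genes. Fragment counts are not given, so no counting intervals were computed.

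Symbols, biotypes, GC content and length (of the longest transcript) came from the GENCODE annotation lifted to GRCh37, which matched 87.2% of the identifiers. The limma package (version 3.58.1, eBayes with an intensity trend) in R (version 4.3.3) was fitted to log2(FPKM + 1) of all 9 libraries, with group and replicate number as terms, over the 13801 genes whose mean reached 1 FPKM. Benjamini-Hochberg adjusted p-values under 0.05 were called. The fit was tested on simulated data. Tables and plots were made with Python (version 3.11.15) and pandas (version 2.3.3).

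The methods state that transfections were repeated in different passages, and the labels number the replicates alike in each group. Same-numbered libraries deviated together from their group means, with a correlation across genes of 0.327 to 0.813 in the 9 pairs, and a mean of -0.256 for other pairs. Deviations from a group mean cancel within the group. The negative mean of the other pairs thus follows from the positive same-numbered pairs and is no separate contrast.

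The members and lists were chosen with earlier results of these data known. Members named are the called ones of a comparison where at most 10 passed, otherwise the 3 with the smallest p, the 5 highest and 5 lowest in EV, those with a stated role, the paralogs and the 3 with the smallest p between passages. The alternatives were a pseudocount of 0.1, FPKM rescaled to 1 sum, median-ratio scaling, no replicate block, only the groups compared, no trend, no filter or a minimum of 5 FPKM, each replicate left out, and loess corrections (span 0.3) for GC content or length. RNA editing was not analysed here. Some genes are counted in the totals but not reported by name here, and are left out of the plots that name genes.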

Additional observations from a re-analysis of the deposited data

How the results depend on the processing

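For Long against EV, 10 members were called higher, 11 with a minimum mean of 5 FPKM or with pseudogenes added to each member (chosen after seeing the data), and 10 with a pseudocount of 0.1. The count fell to 5 with the length correction, to 2 with median-ratio scaling, with only the groups compared or with the GC correction, to 1 with FPKM rescaled to the same sum, and to 0 with no replicate block, without a trend or with no filter on low values; leaving out 1 replicate gave 0 to 5, with 0 without replicate 1 and without replicate 2. With no replicate block, 4 members had an unadjusted p under 0.05 for Long and 2 for Short in limma, and all genes gave 2 calls for Long in place of 1148. Over all genes, Long against EV gave 752 calls with only the groups compared, 646 without a trend, 322 with the GC correction, 12 with no filter, 2 without replicate 1 and 100 without replicate 2, and Short against EV gave 59 without replicate 3, 16 with no filter, 3 without a trend, with the GC correction or with a minimum of 5 FPKM, and 2 with no replicate block or without replicate 1, in place of 5. Long against Short gave 12 with no filter, 9 without replicate 3, 3 without replicate 2 or with only the groups compared, and 0 without replicate 1, without a trend or with no replicate block, in place of 1. Between passages, all genes gave 243 with no filter and 30 without replicate 3 in place of 5028. For Short against EV and Long against Short, limma called no member under any alternative run. Between passages 59 members were called, 49 to 60 under the alternatives except for 38 without a trend, 32 with the GC correction, 3 with no filter and 0 without replicate 3; leaving out 1 replicate gave 0 to 60. The log2 ratio of the members' share was 0.0064 for Short and 0.0205 for Long, and 0.0910 and 0.0962 when the sum took the place of the share. Without each replicate in turn these shares gave 0.0036 to 0.0084 and 0.0114 to 0.0290. The members' median log2 difference of Long to Short, 0.0022, lay near 0 on either side of it, from -0.0043 without replicate 3 to 0.0228 without replicate 1. Over all genes the median for Short and for Long, 0.04 each, turned to -0.03 each with FPKM rescaled to the same sum and to -0.0095 and -0.0010 with median-ratio scaling. The members' medians, 0.09 each, fell to 0.0006 for Short and 0.01 for Long with the same sum. With median-ratio scaling they were 0.03 and 0.04. Members with an unadjusted p under 0.05 in limma went from 34 to 10 for Short and from 38 to 6 for Long with the same sum. Apart from what each alternative changes by construction, the cause was not tested. Fragment counts are not given, so the counting error of each value is unknown, and for members with near-identical copies the spread between libraries does not show how reads were divided among the copies.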
